A study of Rattus norvegicus with 29 samples.

Results

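The effect of gastric bypass on the duodenum was set against the effect of sleeve gastrectomy, each taken from its own sham operation. Roux-en-Y gastric bypass (RYGB) leads food past the duodenum, whereas vertical sleeve gastrectomy (VSG) narrows the stomach and leaves the duodenum in the path of food. The quantity described is a difference of effects: RYGB minus its sham, minus the same difference for VSG. It used 23 of the 29 arrays in the series: 6 of RYGB, 5 of its sham, 6 of VSG and 6 of its sham. The 6 arrays of pair-fed VSG sham rats were left out, and no pair-fed sham of the RYGB operation was used here.

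All rats were male wild-type Long-Evans animals aged 8 to 10 weeks, with 1 array per rat and replicates that the labels call biological. The labels state that the food before surgery was a liquid diet, that VSG removed about 80% of the stomach, and that sham rats had the stomach pressed with forceps. For the RYGB procedure, its sham and the time after surgery, the sources used here give no description. Each surgery had a sham group of its own, and any other difference between the operated groups that their shams do not share cannot be told apart from the surgery. The tissue was whole duodenum, in which fewer cells of a type and less RNA per cell cannot be told apart.

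Enterocytes take up fatty acids and monoglycerides from a meal, rebuild them into triglyceride, hold part of it in cytosolic lipid droplets and export the rest in chylomicrons. Fatty acids that enter these cells also act as ligands of PPAR nuclear receptors, which switch on genes of fatty acid oxidation and lipid storage. The duodenum is also the main site of iron uptake, which rises when iron stores are low through the transcription factor HIF-2alpha.

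Values are log2 RMA values (RMA corrects the background, normalizes the arrays and summarises the probes), and effects are log2 fold changes ± standard error (SE). They come from limma fits over all 14557 genes with two-sided p-values adjusted by the Benjamini-Hochberg method, and a gene is called at an adjusted p under 0.05. Markers of small intestinal epithelium were high in all 23 arrays, with Fabp1 between 11.39 and 11.68, Fabp2 between 11.28 and 11.77 and Vil1 between 9.49 and 10.11. Cdx1 lay near the middle of all genes (3.35 to 4.28) and Sis had no named row.

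Some arrays stood apart within their groups. The mean of 18 exocrine pancreas genes spanned 3.08 to 8.70 among RYGB arrays and 2.80 to 5.57 among those of the RYGB sham. The VSG arrays spanned 4.57 to 8.14 and the VSG sham 2.88 to 7.92. It exceeded 8 in 3 RYGB arrays and 1 VSG array. Fabp6, a bile acid binding protein typical of the ileum, was between 10.77 and 11.14 in 3 arrays (RYGB replicate 5 and VSG sham replicates 4 and 6) and between 4.18 and 6.24 in the other 20. Gata4, a factor of the proximal intestine, was alike in both sets (7.71 to 7.98 and 7.16 to 8.16), as was Gip, a hormone of the upper intestine (9.11 to 9.29 and 8.87 to 9.69). Slc51a, Slc51b and Lct in the 3 arrays also lay within the range of the other 20. Tmigd1, Pyy and Slc10a2, described at the end, had higher medians in the 3 arrays (5.88, 4.12 and 5.62, against 1.35, 2.62 and 4.67). The ranges of Pyy and Slc10a2 overlapped between the sets, and the part of ileal tissue was not tested. Counts without the pancreas-rich and without the Fabp6-rich arrays are given beside the results. The second of these settings was chosen after the data were seen.

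Of the 14557 genes, 50 differed between the 2 surgeries in their effect (0.343%), 42 of them lower for RYGB (0.289%) and 8 higher (0.055%). At an unadjusted p under 0.05, 632 genes lay lower (4.34%) and 603 higher (4.14%). The lower side held the Golgi GTPase gene Rab30, the lipid droplet genes Cidec and Plin2, the triglyceride synthesis gene Dgat2 and the lipoprotein lipase regulators Apoc2 and Angptl4. The higher side held Csta, Nedd9, Pcna and the hypoxia-inducible prolyl hydroxylase gene Egln3. In 35 of the 50 the difference was at least 2-fold, 28 of them lower. Over all 14557 genes the difference lay below 0 in 6935 and above 0 in 7622. These counts and the shares above are the background for the list counts below.

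The RYGB effect had the sign of the difference in all 50 genes, and was itself called in 34 of the 42 lower and in all 8 higher genes. Across all genes RYGB changed 354 (2.43%), 169 higher (1.16%) and 185 lower (1.27%), and VSG changed 10 (0.0687%). The RYGB count was 108 after adjustment for the pancreas mean and 181 without the pancreas-rich arrays. The VSG count moved to 27 or 21 without RYGB replicate 4 or 1, which enter through the shared spread, and to 19, 4 and 3 without VSG replicates 4, 3 and 1. Without VSG sham replicates 1, 2 and 3 it was 5, 6 and 5, and other settings gave 3 to 33. None of the 50 was called for VSG, and the VSG effect lay above 0 in 38 of the 42 lower genes and in 7 of the 8 higher ones. The median of the 42 lower genes was -0.89 for RYGB and 0.24 for VSG, and that of the 8 higher genes was 1.75 and 0.28. These medians describe genes picked by the same contrast and test nothing.

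The overlap of single arrays is a description of the same values. The 6 RYGB arrays lay below all 17 others in 26 of the 42 lower genes and above them in all 8 higher genes, against 52 (0.357%) and 45 (0.309%) of all genes. RYGB and VSG rats compared directly, without the shams, differed in 401 genes (2.75%), 48 of the 50 among them. The exceptions were Vstm5 and Zc3h12a. The direct comparison uses the same RYGB and VSG arrays that picked the 50 genes, so finding them again is no independent test. The 2 sham groups differed in no gene by limma (0%, smallest adjusted p = 0.898), with 769 of 14557 genes at an unadjusted p under 0.05. Among the 50 genes that held for 7 (14%): Vip, Nceh1, Phlda1, Vstm5, Avpi1, Zc3h12a and Cttnbp2nl. The sham gap was 0.55 in Vstm5 and 0.34 in Zc3h12a, beside differences of effects of -0.97 and -0.72. In Nceh1 the sham gap had the other sign (-0.47). Without the arrays rich in pancreas transcripts 23 genes were called, 5 higher and 18 lower, and 19 of the 50 remained. Without the 3 Fabp6-rich arrays 42 were called, 8 higher and 34 lower, and 35 of the 50 remained. The sign of all 50 stayed as it was in both settings.

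**Figure D1:**
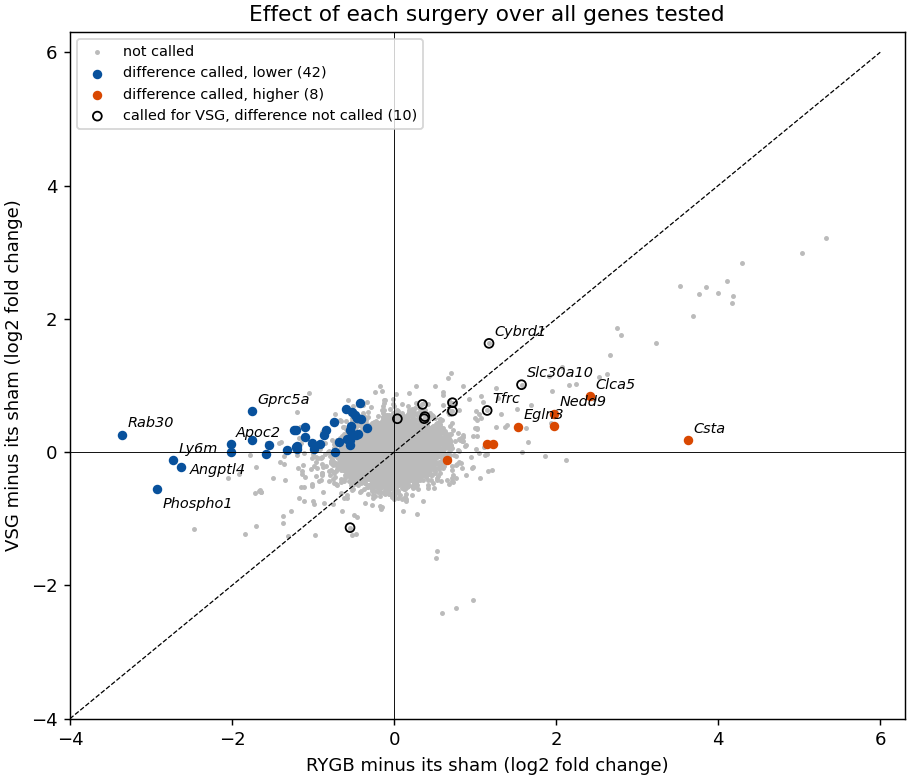
Each point is 1 of 14557 genes, with the RYGB effect on the x axis and the VSG effect on the y axis (log2 fold change against the own sham), and the dashed line marks equal effects. The 42 lower genes (blue) lie at the left with VSG effects near or above 0, the 8 higher genes (orange) at the right, and the 10 genes called for VSG are circled.

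Among genes of lipid droplets Plin2 and Cidec differed, while the droplet genes Plin5 (-0.08 ± 0.26) and Fitm2 (0.00 ± 0.22) did not pass (adjusted p = 0.978 and 0.999). Plin2, the coat protein of droplets in enterocytes, was 8.39, 8.64 and 9.05 (lowest, median, highest) in RYGB and 10.04, 10.11, 10.12, 10.27 and 10.51 in the 5 shams. In VSG it was 10.20, 10.33 and 10.43, and in the VSG sham 10.01, 10.27 and 10.33. All 6 RYGB arrays lay below every other array, and the VSG arrays overlapped their sham. Plin2 fell by 1.54 ± 0.12 on the log2 scale after RYGB, was 0.10 ± 0.11 apart from sham after VSG, and the effects differed by -1.64 ± 0.16, a 3.11-fold gap (limma, adjusted p = 1.99e-06).

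Cidec, which joins small droplets into large ones, was 6.96, 7.33 and 7.56 in RYGB and 8.89, 8.95, 9.01, 9.02 and 9.47 in its sham. In VSG it was 8.99, 9.26 and 9.42, against 8.80, 9.03 and 9.33 in the VSG sham. Again only the RYGB arrays stood clear of the rest. Its RYGB effect was -1.75 ± 0.12, its VSG effect 0.18 ± 0.12 and the difference -1.94 ± 0.17, 3.83-fold (limma, adjusted p = 1.95e-07). Cidec is also abundant in fat cells. Of the 10 adipose genes measured Cidec alone was called, 5 lay below 0, 2 had an unadjusted p under 0.05 (both lower, Cidec and Cebpa) and the median difference was 0.01. The adipocyte hormone Adipoq gave 0.35 ± 0.25 and the adipocyte droplet protein Plin1 -0.05 ± 0.21 (adjusted p = 0.788 and 0.985). The mean level of the list was 4.11 to 4.62 in RYGB and 4.31 to 4.69 over the other groups, and its part in the Cidec result was not tested.

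Dgat2, an enzyme of the last step of triglyceride synthesis, was 7.41, 7.82 and 8.36 in RYGB and 8.67, 9.25, 9.56, 9.65 and 9.85 in its sham. The VSG rats had 9.21, 9.47 and 9.72 and their sham 9.11, 9.52 and 9.85. The RYGB arrays again lay below all others. The effects were -1.58 ± 0.18 and -0.02 ± 0.17, with a difference of -1.56 ± 0.25 (limma, adjusted p = 0.00166). Without the pancreas-rich arrays the difference was -1.31 and the call was lost (adjusted p = 0.0594).

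Apoc2, the cofactor that lets lipoprotein lipase act on chylomicrons, was 7.98, 8.20 and 8.78 in RYGB and 9.90, 10.03, 10.35, 10.39 and 10.67 in its sham. In VSG it was 9.72, 10.22 and 10.74, and 9.82, 10.15 and 10.41 in the VSG sham. The highest RYGB array (8.78) lay below the lowest of the other arrays (9.72). The effects were -2.01 ± 0.18 and 0.12 ± 0.17, and they differed by -2.14 ± 0.25, 4.40-fold (limma, adjusted p = 3.09e-05).

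Abhd5, the coactivator of the droplet lipase Pnpla2, differed in another way and was chosen after its values were seen. It was 7.03, 7.47 and 7.79 in RYGB and 7.66, 7.76, 7.85, 7.90 and 7.92 in its sham, but 8.12, 8.29 and 8.47 in VSG and 7.54, 7.84 and 7.93 in the VSG sham. All VSG arrays lay above their sham, while RYGB and its sham overlapped. Neither surgery was called alone (-0.40 ± 0.11, adjusted p = 0.0589, and 0.50 ± 0.11, adjusted p = 0.064), and the difference of -0.90 ± 0.16 was (adjusted p = 0.00547). It was not called without the pancreas-rich arrays (-0.81, adjusted p = 0.0618).

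Of the 20 measured genes of lipid uptake, droplets and chylomicrons, 5 were lower (0.289% of all genes) and none higher (0.055%). At an unadjusted p under 0.05, 9 members lay lower (4.34% of all genes) and none higher (4.14%). The median difference was -0.27 (RYGB -0.22, VSG 0.03), against 0.01 over all genes. The lipase Pnpla2 (-0.64 ± 0.17, adjusted p = 0.114) and the very abundant Apoa4, an apolipoprotein of chylomicrons (-0.28 ± 0.11, adjusted p = 0.466), did not pass. Apoa4 lay at 11.51, 11.64 and 11.78 in RYGB and between 11.79 and 12.05 in the other 17 arrays, so the gap was narrow but without overlap. The fatty acid binding protein gene Fabp2 gave 0.12 ± 0.11. Outside this list, and chosen after their values were seen, the fatty acid activating enzyme gene Acsl3 (-1.29 ± 0.26, adjusted p = 0.0191), the lysophospholipid transporter gene Mfsd2a (-1.04 ± 0.18, adjusted p = 0.0053) and the cholesterol ester hydrolase gene Nceh1 (-1.33 ± 0.24, adjusted p = 0.00718) were lower. All 3 calls ended without the pancreas-rich arrays (adjusted p = 0.0594 for Mfsd2a and 0.0867 for both Nceh1 and Acsl3). The call of Acsl3 ended without RYGB sham replicate 1 (-1.21, adjusted p = 0.053) and without the 3 Fabp6-rich arrays (-1.18, adjusted p = 0.0952).

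**Figure D2:**
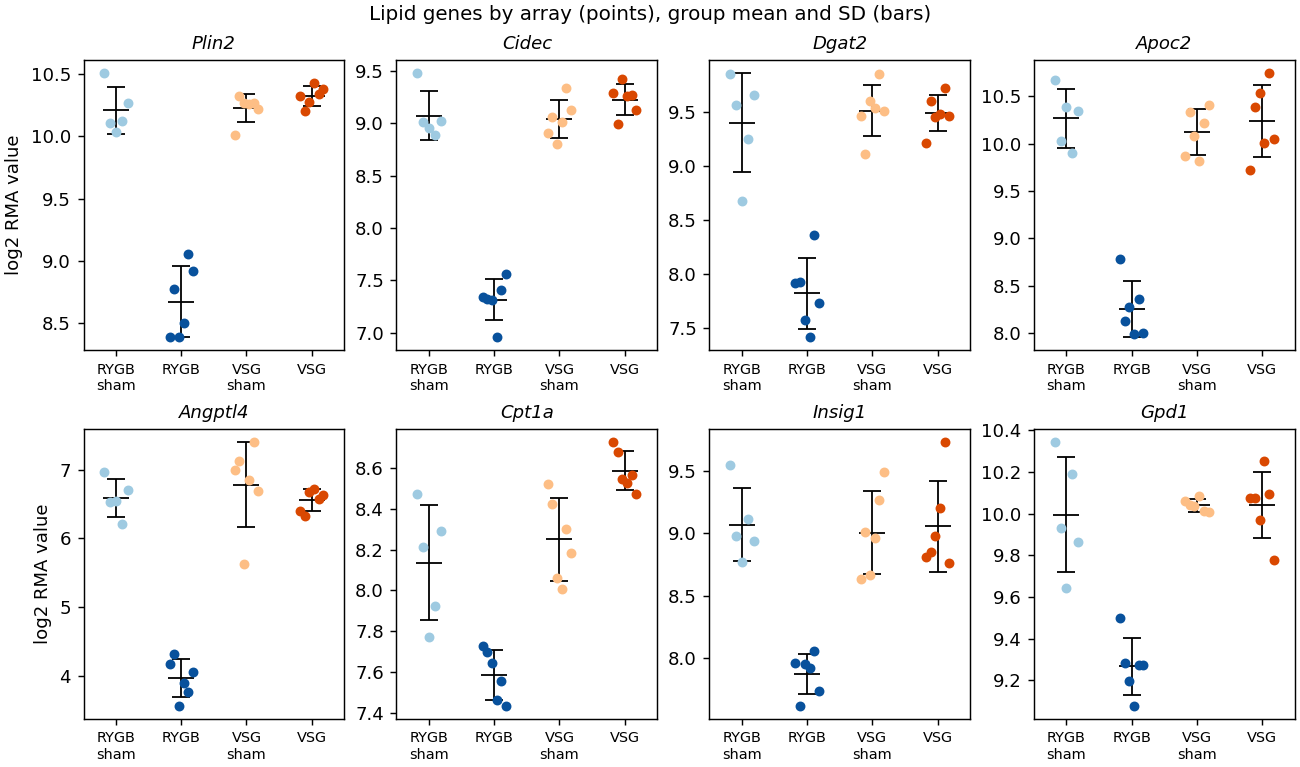
Log2 RMA values of 8 lipid genes in each array (points) with group mean and SD (bars), for RYGB (6), its sham (5), VSG (6) and its sham (6). RYGB arrays lie below all others in each panel, and Cpt1a is also higher in VSG than in most of its sham.

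Promoters of 3 of the genes called lower in the lipid and PPAR lists are shown. They were not picked by a rule, and a motif match lies in each. The window runs from 250 bases before to 50 after the annotated start, 5′ to 3′, from RefSeq on the GRCr8 assembly. Capitals mark motif matches that a search found on either strand: an E-box (CACGTG) in Plin2 (chr5:106228969-106229268, minus strand), a sterol element (TCACNCCA) in Cidec (chr4:148137066-148137365, minus strand) and a hypoxia response core (ACGTG) in Angptl4 (chr7:15258632-15258931, minus strand). The matches in Cidec and Angptl4 read on the opposite strand of the printed sequence.
Plin2: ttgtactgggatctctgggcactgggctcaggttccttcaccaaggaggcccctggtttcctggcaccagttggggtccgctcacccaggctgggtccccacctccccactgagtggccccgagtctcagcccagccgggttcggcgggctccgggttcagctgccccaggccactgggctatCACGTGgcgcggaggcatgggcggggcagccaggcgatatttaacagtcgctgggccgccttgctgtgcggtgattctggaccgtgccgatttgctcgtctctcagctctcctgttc
Cidec: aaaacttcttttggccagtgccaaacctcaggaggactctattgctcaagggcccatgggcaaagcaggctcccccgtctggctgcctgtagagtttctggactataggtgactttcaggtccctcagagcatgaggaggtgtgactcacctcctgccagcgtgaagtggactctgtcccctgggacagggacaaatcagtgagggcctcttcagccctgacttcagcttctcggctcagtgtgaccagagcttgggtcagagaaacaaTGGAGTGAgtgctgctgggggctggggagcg
Angptl4: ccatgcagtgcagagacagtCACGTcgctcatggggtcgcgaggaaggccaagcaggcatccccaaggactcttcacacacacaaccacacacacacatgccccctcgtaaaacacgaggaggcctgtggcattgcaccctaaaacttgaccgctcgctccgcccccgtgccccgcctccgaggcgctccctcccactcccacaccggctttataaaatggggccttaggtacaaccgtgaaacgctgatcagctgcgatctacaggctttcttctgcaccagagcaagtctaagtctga
Of the 42 lower genes, 32 had such a promoter, and so did 7 of the 8 higher and 11724 of all tested genes. The E-box was in 6 of the 32 (18.8%), in 0 of the 7 and in 7.7% of all. The nuclear receptor half-site AGGTCA was in 6 of the 32 (18.8%), 3 of the 7 (42.9%) and 13.5% of all. None of the 3 promoters shown held that half-site. The core ACGTG, which every E-box contains, was in 10 of the 32 (31.2%), 1 of the 7 (14.3%) and 21.5% of all, and TCACNCCA in 2 of the 32 (6.2%), 0 of the 7 and 3.6% of all. A match is a description of letters and no evidence of binding.

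Angptl4, a secreted inhibitor of lipoprotein lipase and a classic PPAR target, was 3.56, 3.98 and 4.32 in RYGB and 6.21, 6.53, 6.55, 6.70 and 6.97 in its sham. It was 6.32, 6.60 and 6.72 in VSG and 5.63, 6.92 and 7.41 in the VSG sham. The highest RYGB array was below the lowest of all others. The RYGB effect was -2.63 ± 0.21, the VSG effect -0.23 ± 0.20 and the difference -2.41 ± 0.29, 5.30-fold (limma, adjusted p = 6.81e-05).

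Cpt1a, which admits fatty acids to mitochondria for oxidation, was 7.44, 7.60 and 7.73 in RYGB, against 7.77, 7.92, 8.21, 8.29 and 8.47 in its sham. It was 8.47, 8.56 and 8.73 in VSG and 8.01, 8.24 and 8.52 in the VSG sham. Cpt1a thus lay below its sham in RYGB (-0.55 ± 0.12), while the VSG effect was 0.34 ± 0.11 (adjusted p = 0.329). The difference was -0.88 ± 0.16 (limma, adjusted p = 0.00827) and was no longer called without the pancreas-rich arrays (-0.83, adjusted p = 0.102) or without the 3 Fabp6-rich arrays (-0.80, adjusted p = 0.0601).

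Among the 30 measured PPAR alpha targets and oxidation genes these 2 were called, both lower. The median difference was -0.26, 24 members lay below 0, and 10 had an unadjusted p under 0.05 in the lower direction and 1 in the higher. Pdk4, a brake on glucose oxidation, gave -1.28 ± 0.31 (adjusted p = 0.0892) and Cpt2, the inner partner of Cpt1a, -0.67 ± 0.17 (adjusted p = 0.105). The member in the higher direction was Ppargc1a, a coactivator of oxidative genes, with 0.79 ± 0.24 (adjusted p = 0.219).

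Of the cholesterol synthesis genes, Insig1 passed the test. Insig1, which holds the SREBP transcription factors back and is itself their target, was 7.62, 7.94 and 8.05 in RYGB and 8.77, 8.94, 8.98, 9.12 and 9.55 in its sham. It was 8.76, 8.91 and 9.74 in VSG and 8.63, 8.98 and 9.49 in the VSG sham, so that RYGB alone lay apart. The difference was -1.25 ± 0.24 (limma, adjusted p = 0.0143), and -1.31 without the pancreas-rich arrays (adjusted p = 0.0788). Of the 18 measured members Insig1 alone was called, 16 lay below 0 and 2 above (the sterol exporter gene Abcg5 at 0.36 ± 0.22 and the sterol isomerase gene Ebp at 0.07 ± 0.17), and 8 had an unadjusted p under 0.05, all lower. The median was -0.45, with -0.39 for RYGB and 0.02 for VSG. RYGB lowered 8 of the 18, whose median VSG effect was 0.01. Idi1 (-0.99 ± 0.30), Fdps (-0.70 ± 0.21) and Sqle (-0.66 ± 0.23), 3 enzymes of the pathway, were below 0 without passing (adjusted p = 0.21, 0.222 and 0.346).

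Of 15 genes of fatty acid synthesis and carbohydrate response none was called, and the median was -0.20. Their regulator Srebf1 gave -0.82 ± 0.22 (adjusted p = 0.132) and the glucose-responsive Txnip -0.53 ± 0.14 (adjusted p = 0.129). Scd, a fatty acid desaturase, was 0.47 ± 0.33, with 1.05 ± 0.24 for RYGB (adjusted p = 0.0148) and 0.58 ± 0.23 for VSG (adjusted p = 0.467). Scd was the 1 member that RYGB raised against its sham, while RYGB lowered 4, Srebf1 and Txnip among them. Of the 15, 6 had an unadjusted p under 0.05 for the difference, all lower.

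The list of gluconeogenesis and fructose handling had the lowest median of the lists, -0.54 over 8 measured members (RYGB -0.55, VSG -0.03). Sugar digestion and transport, a list that shares Slc2a5 and Slc2a2 with it, had a median of -0.16 and no call. Gpd1, which makes the glycerol phosphate backbone of triglyceride, was 9.08, 9.27 and 9.50 in RYGB and 9.64, 9.87, 9.93, 10.19 and 10.35 in its sham. It was 9.78, 10.08 and 10.25 in VSG and 10.01, 10.04 and 10.09 in the VSG sham, and again RYGB did not overlap the rest. Its difference of -0.73 ± 0.15 was called (limma, adjusted p = 0.026), but not without any 1 of 5 arrays (RYGB 4, RYGB sham 1 and 4, VSG 4 and 5, adjusted p from 0.0518 to 0.0735), nor without the pancreas-rich arrays (adjusted p = 0.146) or the 3 Fabp6-rich arrays (0.0862).

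The fructose transporter gene Slc2a5 (-1.18 ± 0.34, adjusted p = 0.177), the basolateral glucose transporter gene Slc2a2 (-0.83 ± 0.22, adjusted p = 0.124) and Pck1, the first committed enzyme of gluconeogenesis (-1.67 ± 0.45, adjusted p = 0.125), were below 0 without passing. Pck1 was 4.64, 5.25 and 6.82 in RYGB and at least 6.95 in every other array, so its RYGB arrays did not overlap. Against its sham RYGB lowered each of these 3 (Pck1 by 2.06 ± 0.33, Slc2a5 by 1.36 and Slc2a2 by 0.85), and the VSG effects were -0.39, -0.18 and -0.03, none called. Since the differences did not pass, the 2 effects are not shown to differ.

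The largest difference of all belonged to Rab30, a small GTPase of the Golgi. It was 5.76, 5.94 and 6.17 in RYGB and 8.75, 9.0, 9.26, 9.39 and 10.06 in its sham. It was 8.95, 9.58 and 10.07 in VSG and 8.94, 9.30 and 9.82 in the VSG sham. The highest RYGB array (6.17) lay far below the lowest of the other 17 (8.75). The effects were -3.35 ± 0.20 and 0.26 ± 0.20, and their difference was -3.61 ± 0.28, 12.2-fold (limma, adjusted p = 5.26e-08).

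Phospho1, a phosphatase that acts on phosphocholine and phosphoethanolamine, was 3.72, 4.26 and 5.37 in RYGB and 6.63, 7.21, 7.51, 7.56 and 7.95 in its sham. It was 6.65, 6.89 and 7.08 in VSG and 6.89, 7.56 and 7.73 in the VSG sham. RYGB was apart from all others, and VSG lay toward the low end of its sham. Its difference was -2.38 ± 0.33 (limma, adjusted p = 0.000294), with a VSG effect of -0.55 ± 0.23 (adjusted p = 0.489). Etnk1, the ethanolamine kinase of the same branch of phospholipid metabolism, was chosen after its values were seen and differed by -1.14 ± 0.15 (adjusted p = 9.86e-05).

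Klf10, Trib1, Ppp1r15a and Emp1 were lower and were chosen after their values were seen. Klf10, a TGF-beta-inducible repressor, was 6.03 to 6.35 in RYGB and 7.17 to 7.95 in the other 17 arrays, and differed by -1.29 ± 0.16 (adjusted p = 8.58e-05). Trib1, a pseudokinase that guides protein degradation, differed by -1.49 ± 0.23 (adjusted p = 0.00123). In Ppp1r15a, the phosphatase subunit that restarts translation after stress, and in the membrane protein gene Emp1, both sides took part. Ppp1r15a was 4.30, 4.91 and 5.21 in RYGB and 5.24, 5.30, 5.34, 5.39 and 5.45 in its sham, but 5.43, 5.62 and 5.98 in VSG and 4.90, 5.14 and 5.33 in the VSG sham. RYGB lay wholly below its sham and VSG wholly above its own. Neither effect was called alone (-0.48 ± 0.13, adjusted p = 0.0584, and 0.55 ± 0.13, adjusted p = 0.0952), and the difference was -1.03 ± 0.19 (adjusted p = 0.00718). Emp1 gave -0.52 ± 0.15 for RYGB and 0.60 ± 0.14 for VSG, neither of them called (limma, adjusted p = 0.0647 and 0.104). Its difference was -1.12 ± 0.20 (adjusted p = 0.00827). Without the pancreas-rich arrays Emp1 gave -0.98 (adjusted p = 0.0594).

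The list of immediate early and heat shock genes held no called member. Of its 22 measured genes 19 lay below 0, 8 had an unadjusted p under 0.05, all lower, and the median was -0.43, from -0.17 for RYGB and 0.23 for VSG. Fos, an immediate early transcription factor, was 5.38, 6.23 and 6.57 in RYGB and between 6.48 and 7.52 elsewhere, with 1 array of each sham within the RYGB range, and gave -1.0 ± 0.27 (adjusted p = 0.12). Atf3 (-1.25 ± 0.54) and Dusp1 (-0.62 ± 0.25) had adjusted p of 0.528 and 0.475. These genes are also known to respond to tissue handling, on which the sources used here hold no detail.

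**Figure D3:**
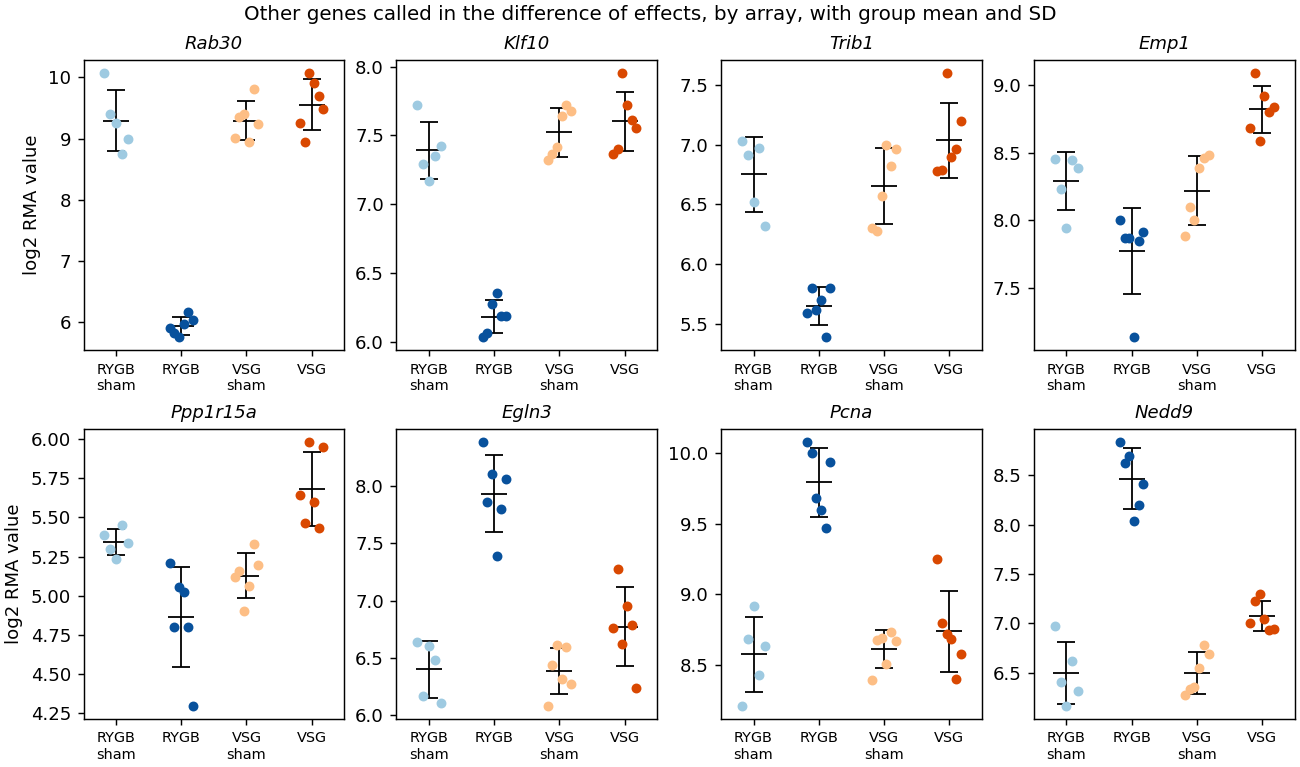
Log2 RMA values of 8 further called genes in each array (points) with group mean and SD (bars), for RYGB (6), its sham (5), VSG (6) and its sham (6). Rab30, Klf10 and Trib1 are low in RYGB alone, Ppp1r15a and Emp1 also lie higher in VSG than in its sham, and Egln3, Pcna and Nedd9 are high in RYGB.

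Spink4, a protease inhibitor secreted by goblet cells, was 7.62, 9.0 and 9.15 in RYGB and 10.09, 10.56 and 10.82 in its sham, with the other 2 sham arrays higher, up to 11.19. It was 9.81, 10.23 and 10.66 in VSG and 9.47, 10.29 and 10.70 in the VSG sham, so only RYGB lay apart. The difference was -2.01 ± 0.36 (limma, adjusted p = 0.00659). The goblet genes Tff3, Zg16 and Clca1 were not called, with -0.11 ± 0.14, 0.08 ± 0.10 and -0.18 ± 0.17. Of 15 goblet genes 1 was lower and 1 higher, with a median of -0.11.

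The higher one was Clca5, of the chloride channel regulator family, at 4.24, 4.59 and 5.39 in RYGB and 1.74, 2.21, 2.29, 2.45 and 2.54 in its sham. It was 2.04, 2.73 and 3.73 in VSG and 1.5, 2.06 and 2.55 in the VSG sham. Both surgeries lay toward higher values, RYGB more so (2.42 ± 0.26 against 0.84 ± 0.24). Its difference of 1.58 ± 0.35 was close to the threshold (limma, adjusted p = 0.0489), and 18 of the 23 arrays ended the call when left out singly (1.41 to 1.65, adjusted p from 0.0546 to 0.123). The call of Clca5 also ended without the pancreas-rich arrays (1.48, adjusted p = 0.194) and without the Fabp6-rich arrays (adjusted p = 0.0644).

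Vip, a neuropeptide of enteric neurons that relaxes muscle and drives secretion, was 4.02, 4.26 and 4.65 in RYGB and 5.26, 5.26, 5.56, 5.59 and 5.75 in its sham. It was 4.58, 5.43 and 5.73 in VSG and 4.04, 5.16 and 5.46 in the VSG sham. RYGB lay below its own sham and overlapped both VSG groups. The difference was -1.55 ± 0.32 (limma, adjusted p = 0.0212), to which the shams added (0.55 between them, unadjusted p = 0.0248). Its call ended when replicate 4 of the RYGB sham was left out (-1.49, adjusted p = 0.0563) and without the pancreas-rich arrays (adjusted p = 0.181). Of 17 genes of enteric neurons and glia 1 was called and 13 lay below 0, with a median of -0.27. The mean level of that list was 3.77 to 4.23 in RYGB, 3.99 to 4.54 in its sham, 4.13 to 4.29 in VSG and 3.79 to 4.45 in the VSG sham. The part of tissue composition in the Vip result was not tested.

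Slc20a1, a sodium phosphate cotransporter, was 5.59, 6.07 and 6.65 in RYGB and 7.12, 7.22, 7.36, 7.51 and 7.77 in its sham. It was 7.28, 7.58 and 7.84 in VSG and 7.34, 7.54 and 7.72 in the VSG sham. RYGB lay below all other arrays, and the difference was -1.35 ± 0.22 (limma, adjusted p = 0.0019). It was the only call among 12 genes of calcium absorption and vitamin D response (median -0.19). S100g, the calcium carrier of enterocytes, gave 0.02 ± 0.11, and Cyp24a1, which degrades vitamin D, gave 1.57 ± 0.52 (adjusted p = 0.296).

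Ly6m (-2.60 ± 0.55, adjusted p = 0.0316), of the Ly6 family, and Gprc5a (-2.38 ± 0.53, adjusted p = 0.0466), a receptor induced by retinoic acid, had large but scattered differences. Leaving out single arrays ended the call of Ly6m for 14 of the 23 arrays (-2.58 to -2.37, adjusted p up to 0.0763) and that of Gprc5a for 15 (-2.45 to -2.12, adjusted p up to 0.106). Without the pancreas-rich arrays Ly6m gave -2.56 (adjusted p = 0.169) and Gprc5a -1.76 (adjusted p = 0.334). C1h11orf86, a gene of unknown function, differed by -1.57 ± 0.20 (adjusted p = 9.15e-05), and its RYGB arrays (7.04 to 7.46) lay below all others (8.00 to 9.04).

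Among the 8 higher genes Nedd9, a scaffold of cell adhesion and migration, was 8.04, 8.52 and 8.84 in RYGB and 6.17, 6.32, 6.40, 6.62 and 6.97 in its sham. It was 6.94, 7.03 and 7.30 in VSG and 6.27, 6.45 and 6.78 in the VSG sham. RYGB lay above every other array, and all VSG arrays lay above their sham. The effects were 1.97 ± 0.15 and 0.58 ± 0.14 (adjusted p = 0.127), and the difference was 1.39 ± 0.21, 2.63-fold (limma, adjusted p = 0.000778).

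Pcna, the clamp that holds DNA polymerase on its template, was 9.47, 9.81 and 10.08 in RYGB and 8.21, 8.43, 8.63, 8.68 and 8.92 in its sham. It was 8.40, 8.70 and 9.25 in VSG and 8.39, 8.67 and 8.73 in the VSG sham, so RYGB alone stood above the rest. The difference was 1.09 ± 0.20 (limma, adjusted p = 0.00758), and 1.12 without the pancreas-rich arrays (adjusted p = 0.0594). No other of 27 cell cycle genes was called, the list's median was -0.10, and its medians for RYGB and VSG were -0.30 and -0.25. Prc1, a protein of the dividing cell's midzone, gave -0.80 ± 0.20 (adjusted p = 0.0997), opposite to Pcna.

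Csta, an inhibitor of cysteine proteases, was 4.11, 5.25 and 7.50 in RYGB and 1.26, 1.51, 1.63, 1.87 and 2.75 in its sham. It was 1.24, 1.73 and 2.91 in VSG and 1.34, 1.55 and 2.05 in the VSG sham. Outside RYGB no array exceeded 2.91, a dim level at which a fold change depends on the floor of the signal. The difference was 3.45 ± 0.58 (limma, adjusted p = 0.00361). Tbc1d21 (1.58 ± 0.32, adjusted p = 0.0217), the flavin monooxygenase gene Fmo4 (1.02 ± 0.19, adjusted p = 0.00827) and Amacr, a racemase of branched-chain fatty acid breakdown (0.77 ± 0.15, adjusted p = 0.0164), made up the rest with Clca5 and Egln3. The call of Tbc1d21 ended when replicate 1 of the RYGB sham (1.54, adjusted p = 0.056) or replicate 1 of the VSG sham (1.53, adjusted p = 0.0511) was left out. Without the pancreas-rich arrays Fmo4 gave 1.08 (adjusted p = 0.0594) and Amacr 0.77 (adjusted p = 0.113), and Amacr also lost its call without the Fabp6-rich arrays (0.79, adjusted p = 0.0549). Just outside the threshold lay Kcne2 (0.78 ± 0.18, adjusted p = 0.0609) and Armt1 (0.74 ± 0.17, adjusted p = 0.062). Between the shams they gave -0.35 and -0.34 (limma, unadjusted p = 0.0123 and 0.0109). RYGB against VSG gave 0.43 and 0.40 (adjusted p = 0.0676 and 0.0761). Kcne2 was dim in all 23 arrays (1.73 to 2.795).

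**Figure D4:**
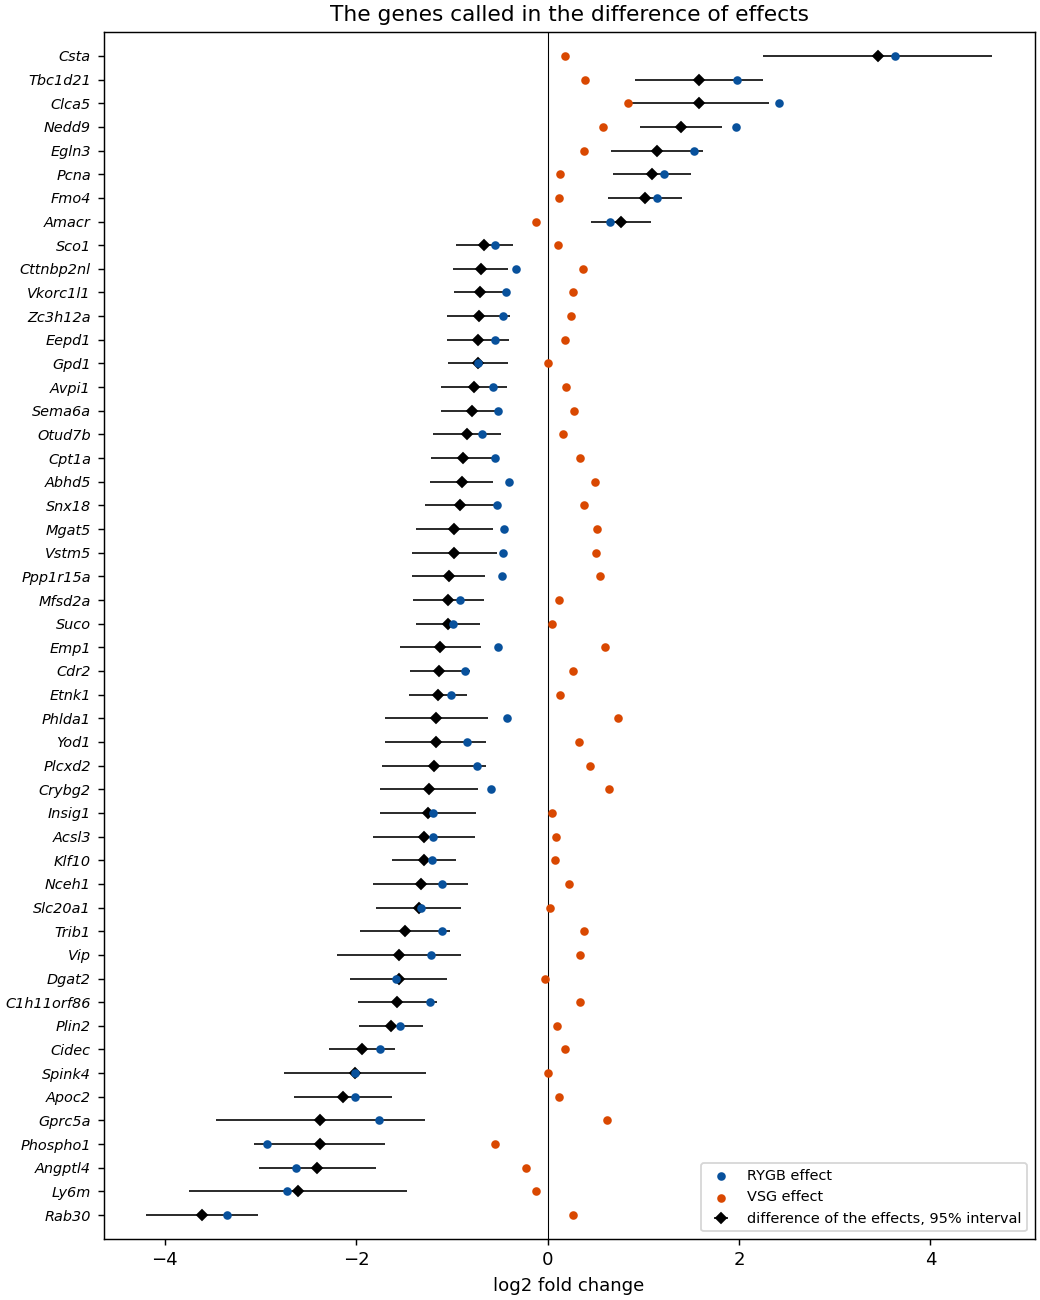
The 50 called genes by their difference of effects (diamonds, with 95% interval), with the RYGB effect (blue) and the VSG effect (orange) on a log2 axis. The RYGB effect is below 0 in all 42 lower genes and above 0 in all 8 higher ones, while the VSG effect stays between -0.55 and 0.84.

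Egln3, a prolyl hydroxylase that hypoxia induces and that marks HIF for degradation, was 7.39, 7.96 and 8.38 in RYGB and 6.11, 6.17, 6.49, 6.61 and 6.64 in its sham. It was 6.24, 6.77 and 7.27 in VSG and 6.09, 6.38 and 6.62 in the VSG sham. RYGB lay above all others and VSG overlapped its sham. The difference was 1.15 ± 0.23 (limma, adjusted p = 0.0213). The call was lost without RYGB sham replicate 2 (1.09, adjusted p = 0.0594), without the pancreas-rich arrays (1.12, adjusted p = 0.0526) and without the 3 Fabp6-rich arrays (1.22, adjusted p = 0.0549).

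It was the only call among 19 hypoxia response genes, of which 14 lay above 0 and 8 had an unadjusted p under 0.05, all higher. The median difference was 0.27, from 0.34 for RYGB and 0.07 for VSG. P4ha1, a collagen prolyl hydroxylase (0.96 ± 0.23, adjusted p = 0.091), the vasodilator peptide gene Adm (0.99 ± 0.33, adjusted p = 0.311) and Ankrd37 (1.67 ± 0.51, adjusted p = 0.229) were above 0 without passing. RYGB raised 8 of the 19, with a median of 0.87, and all 8 were also above 0 for VSG, with a median of 0.38. Of the 5 members with a difference below 0, Ndrg1 was raised by both surgeries. Its effects were 0.72 ± 0.14 for RYGB and 0.74 ± 0.13 for VSG, with a difference of -0.02 ± 0.19.

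None of 22 iron genes was called in the difference (median 0.06). RYGB alone against its sham raised 6 and lowered 1, and VSG raised 3, so that most members passed for neither surgery. Tfrc, the transferrin receptor, was 8.98, 9.17 and 9.29 in RYGB and 7.84, 7.94, 7.99, 8.07 and 8.12 in its sham. It was 8.36, 8.72 and 9.01 in VSG and 7.83, 8.03 and 8.40 in the VSG sham. Tfrc rose by 1.15 ± 0.12 after RYGB (adjusted p = 1.1e-06) and by 0.62 ± 0.11 after VSG (adjusted p = 0.0169), and the difference of 0.52 had a 95% interval of 0.19 to 0.86 (adjusted p = 0.239). That interval leaves out 0 before adjustment, and the miss of the threshold does not show equal effects.

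Cybrd1, which reduces dietary iron at the apical membrane, was 11.91, 12.17 and 12.28 in RYGB and 10.13, 10.69, 10.78, 11.48 and 11.80 in its sham. It was 11.54, 11.95 and 12.10 in VSG and 9.47, 10.43 and 10.82 in the VSG sham. Both surgeries lay above their shams without overlap (1.17 ± 0.23 and 1.63 ± 0.22, adjusted p = 0.00486 and 0.00211). The difference of -0.46 had an interval of -1.12 to 0.21, and its sign turned to 0.25 when RYGB and VSG were compared without the shams, which differed by 0.71. The exporter gene Slc40a1 gave 0.69 ± 0.12 and 0.57 ± 0.12 (adjusted p = 0.00182 and 0.0527), with an interval of -0.23 to 0.47 for the difference. The 6 iron genes that RYGB raised all lay above 0 for VSG, and VSG raised 3 of them (Tfrc, Cybrd1 and Epas1, which encodes HIF-2alpha). The iron gene that RYGB lowered was Slc25a28, a mitochondrial iron importer, by 0.88 ± 0.12 (adjusted p = 8e-05), with all RYGB arrays below all others. Its VSG effect was -0.17 ± 0.12 and its difference of -0.71 ± 0.17 was the nearest to a call in the list (adjusted p = 0.0648).

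By comparison, of all 169 genes that RYGB raised, 139 were above 0 for VSG (82.2%), with medians of 0.61 and 0.18. Of the 185 it lowered, 113 were below 0 for VSG (61.1%), with medians of -0.74 and -0.07. The 6 lipid genes among the lowered had medians of -1.56 and 0.09, with 2 below 0 for VSG. The 10 genes called for VSG also included the manganese exporter gene Slc30a10 (1.57 ± 0.19 for RYGB, 1.01 ± 0.18 for VSG), Ndrg1, Narf, Pfkl, Prr15 and Kif13a, all higher, and Cyp4f5, lower. None of these 10 was called in the difference. Unadjusted 95% intervals of the difference left out 0 in Tfrc, Slc30a10 (0.02 to 1.10), Cyp4f5 (0.05 to 1.14), Prr15 (-0.72 to -0.01) and Kif13a (-0.71 to -0.21), and held 0 in the other five.

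Gut hormone genes gave no call among 16 (median 0.07). Gip was between 8.87 and 9.69 in all 23 arrays, with a difference of 0.13 ± 0.18 and an interval of -0.24 to 0.51. Gcg, which encodes the GLP hormones, gave 0.35 ± 0.26 (interval -0.18 to 0.88). Of 22 genes of Paneth cells and mucosal defence none was called either, 17 lay above 0 and 6 had an unadjusted p under 0.05, all higher. The median was 0.27, with 0.22 for RYGB and -0.05 for VSG. Duoxa2, a maturation factor of the peroxide-producing dual oxidase, gave 1.27 ± 0.34 (adjusted p = 0.114), with RYGB at 3.18 to 4.71 and the others at 1.85 to 3.35. The antimicrobial lectin gene Reg3g gave -1.04 ± 0.60 and 0.07 without the shams. The detoxifying enzyme gene Cyp1a1 gave -1.32 ± 0.69 (adjusted p = 0.631) with 1.17 between the shams.

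Exocrine pancreas genes had the highest median difference, 1.43 over 18 genes, and no call. Their median effects were 3.38 for RYGB, 1.95 for VSG and -1.59 between the shams. Prss1, trypsinogen, was 2.87, 9.22 and 10.03 in RYGB, against 0.96, 1.33, 1.89, 1.96 and 7.92 in its sham. It was 6.28, 9.01 and 10.16 in VSG and 0.82, 6.10 and 9.65 in the VSG sham, so that arrays within a group spanned most of the range. The difference was 2.12 ± 2.07 and it turned to -0.66 without the shams. When the pancreas mean entered the fit as a covariate, 41 genes were called in the difference, 40 of the 50 among them, while the RYGB effect had 108 calls.

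Across the 41 lists, 10 held a called member and 31 held none. Besides exocrine pancreas, the medians of the lists without a call ran from -0.43 to 0.27. Macrophage and fibroblast lists were at -0.28 and -0.32 with no call among 22 and 24 genes, and the mean fibroblast level was 4.96 to 5.64 in RYGB and 5.46 to 5.78 in the other groups. Whether a smaller share of connective tissue entered the RYGB results was not tested. Peptide digestion and amino acid transport was at 0.20, sugar digestion at -0.16, xenobiotic metabolism at -0.18 and oxidative phosphorylation at -0.02.

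**Figure D5:**
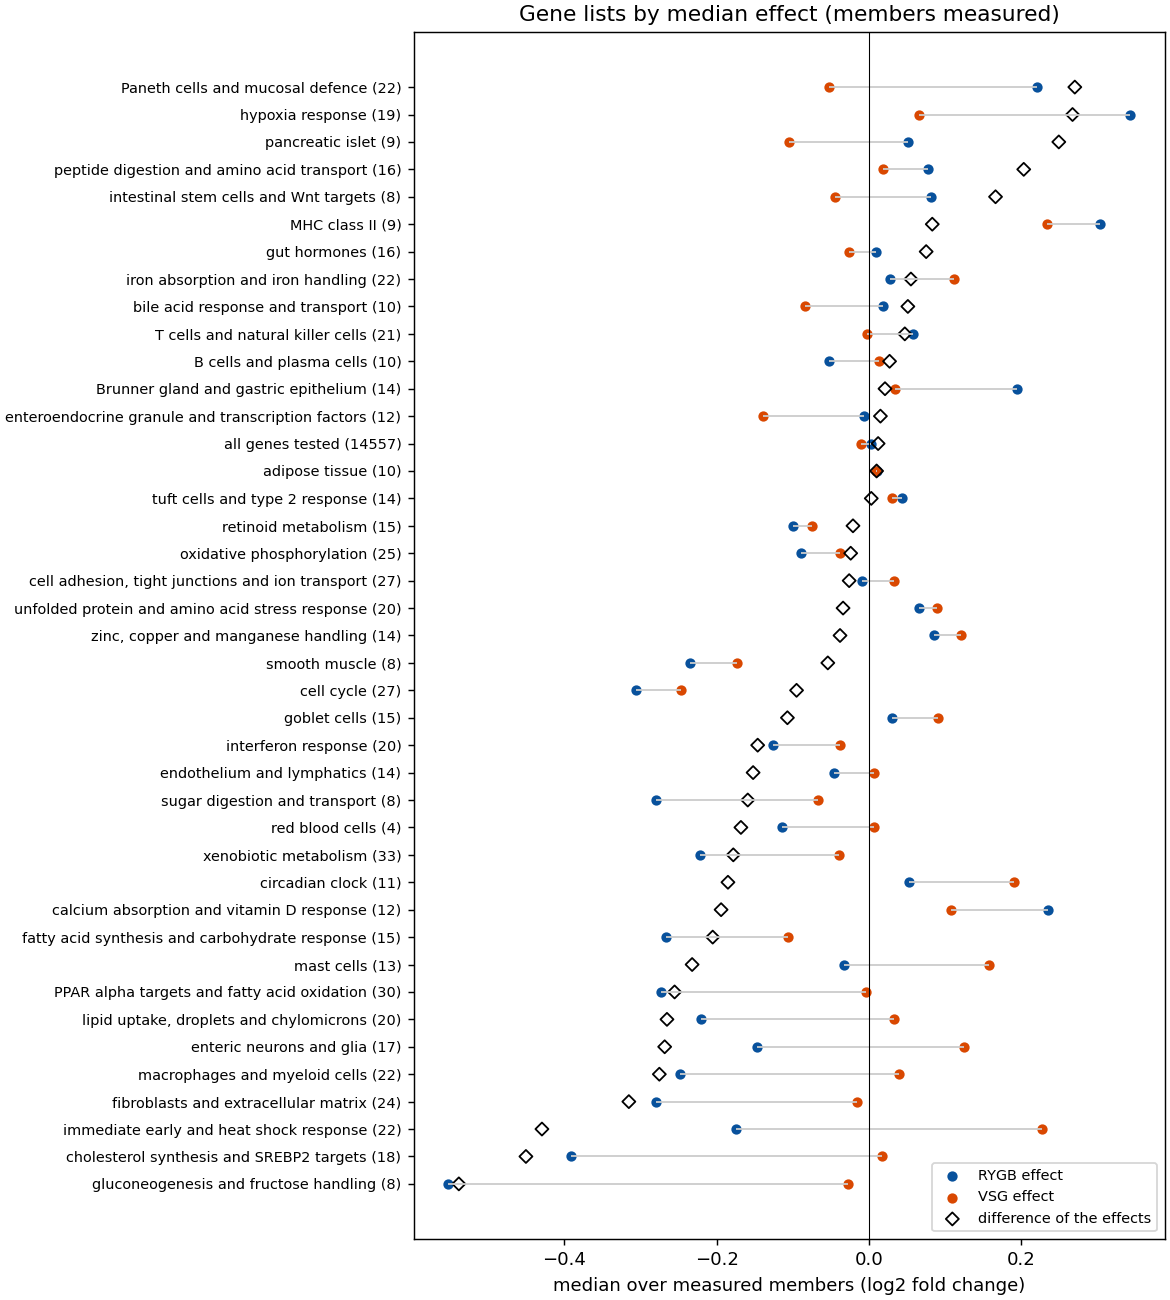
Median log2 effect over the measured members (number in brackets) of 40 gene lists and of all genes, for RYGB (blue), VSG (orange) and their difference (diamonds), which is a median of differences and need not equal the gap between the dots. Exocrine pancreas, at 1.43, is left out of the plot. Gluconeogenesis and fructose handling, cholesterol synthesis and immediate early genes lie lowest.

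Of the 50 genes, 17 kept their call under each of 12 other settings that gave them a value and with each single array left out, 15 lower and 2 higher, and 33 kept it with each single array left out. The 17 were Rab30, Angptl4, Phospho1, Apoc2, Spink4, Cidec, Plin2, C1h11orf86, Trib1, Slc20a1, Klf10, Etnk1, Cdr2, Suco and Ppp1r15a on the lower side and Nedd9 and Csta on the higher. Cdr2 and Suco, chosen after their values were seen, differed by -1.13 ± 0.15 and -1.04 ± 0.16. The remaining called genes not described above had differences from -1.24 (Crybg2) to -0.66 (Sco1). They were Crybg2, Plcxd2, Yod1, Phlda1, Mgat5, Vstm5, Snx18, Otud7b, Sema6a, Avpi1, Eepd1, Zc3h12a, Vkorc1l1, Cttnbp2nl and Sco1. In Crybg2 (-0.59 for RYGB, 0.65 for VSG), Phlda1 (-0.42, 0.74), Vstm5 (-0.46, 0.51), Mgat5 (-0.46, 0.52) and Cttnbp2nl (-0.33, 0.37) neither effect was called alone. Leaving out single arrays ended the call of Plcxd2, Yod1, Phlda1, Vstm5, Avpi1, Eepd1, Zc3h12a and Sco1 for 15 to 19 of the 23 arrays each.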

How the data were processed

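RNA from rat duodenum was hybridised to Affymetrix gene arrays, 1 per rat. The deposited values are log2 expression values that the authors made by RMA. The submitters' processing notes name the Affymetrix Expression Console, version 1.3.0.187. For the chip definition, build and filters, the sources used here name nothing. Array medians lay between 2.80 and 2.97, and no pair of arrays correlated above 0.977. Arrays give no read depth, so their number limits the precision.

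Of 36685 rows, 14824 had 1 gene symbol, 829 had several and 21032 are unnamed here. Current symbols were taken by Entrez number with the GRCr8 gene table (154 not found kept theirs). A gene was its row with the highest mean over 29 arrays (a choice for 234 genes). No dim genes were removed, which left 14557.

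The model had 4 group means over 23 arrays (limma 3.58.1 in R 4.3.3, lmFit, contrasts.fit and eBayes), was tested on simulated data, and had no block. Same-numbered arrays showed little likeness: in 33 such pairs across groups, deviations from group means correlated between -0.106 and 0.143, and 1 pair exceeded 0.1. Such correlations cannot show that the design was unpaired.

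The groups and 41 gene lists (928 members, 672 measured) were chosen with earlier results of these data known. The text names the 12 largest and 12 smallest differences among called genes, up to 4 called members per list, up to 10 genes called for both surgeries in opposite directions (there were none), a fixed panel of 27 genes, and the 10 smallest p-values in a direction with fewer than 10 calls. Other genes are said to be chosen after their values were seen. The tissue check used Vil1, Fabp1, Fabp2, Cdx1, Cdx2, Apoa4, Sis and Lct.

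Alternatives were a replicate block, all 29 arrays, no dim genes (lowest 33.3%), averaged rows, all rows, a trended and robust prior, median centring, quantile normalization, array weights, a pancreas covariate, leaving out arrays with a pancreas mean above 8, leaving out each array, and, added after seeing the data, leaving out arrays with Fabp6 above 10.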

Additional observations from a re-analysis of the deposited data

Results flagged for a closer look

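The effects of RYGB and VSG differed by the test of the difference itself (limma, adjusted p under 0.05) in 50 genes. Among the genes named by rule, this held with a higher value for RYGB in Csta (3.45), Tbc1d21 (1.58), Clca5 (1.58), Nedd9 (1.39), Egln3 (1.15), Pcna (1.09), Fmo4 (1.02) and Amacr (0.77). It held with a lower value in Rab30 (-3.61), Ly6m (-2.60), Angptl4 (-2.41), Phospho1 (-2.38), Gprc5a (-2.38), Apoc2 (-2.14), Spink4 (-2.01), Cidec (-1.94), Plin2 (-1.64), C1h11orf86 (-1.57), Dgat2 (-1.56), Vip (-1.55), Slc20a1 (-1.35), Insig1 (-1.25), Cpt1a (-0.88) and Gpd1 (-0.73).

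A single array lay far from the rest of its group in 12 of 176 groups tested, where chance gives about 1 in 20. Replicate 4 of RYGB was low in Fos (5.38, others from 6.16), Cybrd1 (11.91, others from 12.16) and Slc30a10 (8.66, others from 9.21). Replicate 1 of the RYGB sham was high in Cidec (9.47, others up to 9.02), in Prss1 (7.92, others up to 1.96) and in the mean of the exocrine pancreas genes (5.57, others up to 3.23). Replicate 5 of RYGB was low in Prss1 (2.87, others from 7.60), and replicate 2 of the RYGB sham was high in Reg3g (10.41, others up to 8.22). Replicate 4 of VSG was high in Csta (2.91, others up to 1.80) and replicate 1 of VSG low in C1h11orf86 (8.56, others from 8.93). In the VSG sham, replicate 1 was low in Plin2 (10.01, others from 10.22) and replicate 3 low in Slc40a1 (9.29, others from 9.75).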

How the results depend on the processing

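All 50 called genes kept the sign of their difference under each setting listed that gave them a value (Csta had none without the dim genes). The number called in the difference ran from 38 to 55 with single arrays left out (6 to 12 higher, 30 to 46 lower) and was 23 without the pancreas-rich arrays, which leaves 3 RYGB arrays. The higher genes numbered 13 with all 29 arrays, 14 without dim genes, 13 over all rows, 14 with a trended and robust prior and 5 without the pancreas-rich arrays, and the lower genes 18 in the last. With the replicate block 34 genes were called, 8 higher and 26 lower, and 32 of the 50 remained. The best match of 2 of 23 arrays had its own number, and whether the numbers mark a pairing is not known. The RYGB effect had 265 to 435 calls with single arrays left out, 108 with the pancreas covariate and 181 without the pancreas-rich arrays. The VSG effect had 3 to 27 calls with single arrays left out, 4 with the replicate block, 26 with all 29 arrays, 33 without dim genes, 33 with a trended and robust prior, 24 after quantile normalization, 20 with array weights, 3 with the pancreas covariate and 3 without the Fabp6-rich arrays. RYGB against VSG had 269 to 402 calls with single arrays left out and 115 without the pancreas-rich arrays, and the shams had 0 in each setting. Compared without shams, Cybrd1 (0.25), Reg3g (0.066) and Prss1 (-0.66) changed sign. The causes were not tested. Dim genes such as Csta and Clca5 lie near the signal floor.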

Other observations

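Some genes had a large but uncalled difference and were chosen after their values were seen. Fabp6 gave 3.11 ± 1.53 (adjusted p = 0.596), with the 3 arrays given above at 10.77 to 11.14. Tmigd1, a membrane protein gene of the intestinal epithelium, gave 2.01 ± 1.00 (adjusted p = 0.599) and was 3.87 to 5.98 in the same 3 arrays and 1.00 to 1.64 in the other 20. The hormone gene Pyy, typical of the distal gut, was 2.92 to 4.70 in these 3 and 2.07 to 3.72 in the other 20, and the ileal bile acid transporter gene Slc10a2 was 5.45 to 5.99 and 2.52 to 5.64. The water channel gene Aqp8 gave 2.11 ± 0.53 (adjusted p = 0.102), from 0.52 for RYGB and -1.59 for VSG. The pancreatic hormone gene Ins1 gave 2.24 ± 1.08 (adjusted p = 0.582). The part of other tissue in these arrays was not tested.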
